A study of Mus musculus with 6 samples.

Results

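Hormone, neuropeptide and granin genes were compared between mouse astrocytes of the cerebellum and of the neocortex. The set had 10 genes, namely the calcitonin-family genes Iapp, Calca and Calcb, the granin genes Scg2, Scg3, Chga and Chgb, and the neuropeptide genes Npy, Penk and Sst. Probe sets were taken where the platform annotation gave one of these symbols, and 12 of the 45101 probe sets on the array qualified, for 9 of the 10 genes. Calca has no probe set under its symbol in that annotation and was not analysed here. Iapp had 4 probe sets and each other gene had 1. The genes were chosen by their role in peptide secretion and by the measured cerebellar against neocortical difference on these same arrays, in which Iapp and Scg2 ranked 4 and 10 from the top of 12616 tested genes. Their regional differences are therefore given as a description, with fitted values and no p-value.

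Each region was represented by 3 single-colour arrays, hybridised with biotin-labelled amplified RNA made from total RNA. The groups were cerebellar astrocytes and neocortical astrocytes, with no genotype, treatment or age in the labels. The ICR strain was named for neocortical samples only, so a strain difference and a regional one cannot be told apart if the cerebellar samples came from another strain. Nothing states whether the 3 samples of a region came from separate animals or cultures, so errors cover only array-to-array spread, part of which may be technical. The arrays were of similar overall signal, with deposited medians of 284.7 to 361.2 and rank correlations of at least 0.932 within each region. Control probes for the 3′ and 5′ ends of Gapdh, which report on RNA integrity, gave ratios that ran from 0.913 to 1.07 on cerebellar arrays and from 0.865 to 0.883 on neocortical arrays. The Actb ratios overlapped, at 1.42 to 1.62 on cerebellar and 1.35 to 1.44 on neocortical arrays. The part of RNA integrity in the results was not tested. All 14 astrocyte markers were bright enough to be tested, and their summed signal was 175900 to 251900 on cerebellar and 247300 to 295700 on neocortical arrays (two-sided exact permutation p = 0.2). The cerebellar sum was the lower one in all 3 pairs of same-numbered arrays (exact paired permutation p = 0.25, the smallest that 3 pairs allow). This was not particular to astrocyte markers. The same result was seen for the neuroendocrine, oligodendrocyte-lineage, choroid plexus and ependymal, and endothelial and mural lists below. The neuronal sum was lower in 2 pairs, and the fibroblast and microglia sums in 1 each. By limma, 1 of the 14 astrocyte markers was called higher and 5 lower in cerebellar astrocytes, against 5.3% and 7.36% of all tested genes. Aqp4 was the higher one, and its call was lost in 7 of 16 alternative settings. The lower ones were Fgfr3, Aldoc, Glul, Slc1a3 and Acsbg1, with calls lost in 8, 6, 2, 2 and 1 of these settings. Slc1a3 was called on 1 of its 6 tested probe sets.

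Peptide hormones and neuropeptides are made as longer precursors that enter the secretory pathway, are packed into dense-core vesicles and are cut there at pairs of basic residues. Granins are acidic proteins that help to form these vesicles and are themselves precursors of small peptides. Neurons and endocrine cells are the classical users of this route. Astrocytes are known to make some of its components, and secretogranin II has been described in their granules.

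Signal is given below as quantile-normalized intensity in arbitrary units, in the order of arrays 1, 2 and 3 of each region. Differences are cerebellar minus neocortical on the log2 scale, after values under 62.2, the 20th percentile, were raised to that floor. A set of 24 bacterial control probe sets, which match no mouse transcript, read from 2.9 to 269.2 in the values as deposited. Controls were left out of the normalization, so this range and the normalized values set against it differ slightly in scale. Values up to 269.2 are called the dim range and may be background. That limit is the highest control reading, and the 95th percentile of the control readings was 116. Testing was limited to probe sets whose mean log2 signal reached the 40th percentile. In bulk RNA, fewer cells that use a gene and less RNA per cell cannot be told apart.

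Of the 9 measured genes, 6 were bright enough to be tested. Iapp and Scg2 were called higher and Chgb was called lower in cerebellar astrocytes, and Scg3, Npy and Penk were not called. Over the whole array, 12.7% of 12616 genes were called, 5.3% higher and 7.36% lower. By probe set, 4 of the 8 tested were called higher and 1 lower, against 4.88% and 5.72% of all tested probe sets (10.6% in either direction). Because the same comparison led to this choice of genes, nothing is read from the counts. The groups did not overlap for 4 of the 6 tested genes, as for 34.3% of all tested genes (16% with cerebellar arrays above and 18.3% with them below). Calcb, Chga and Sst lay in the dim range on every array and were not tested.

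**Figure D1:**
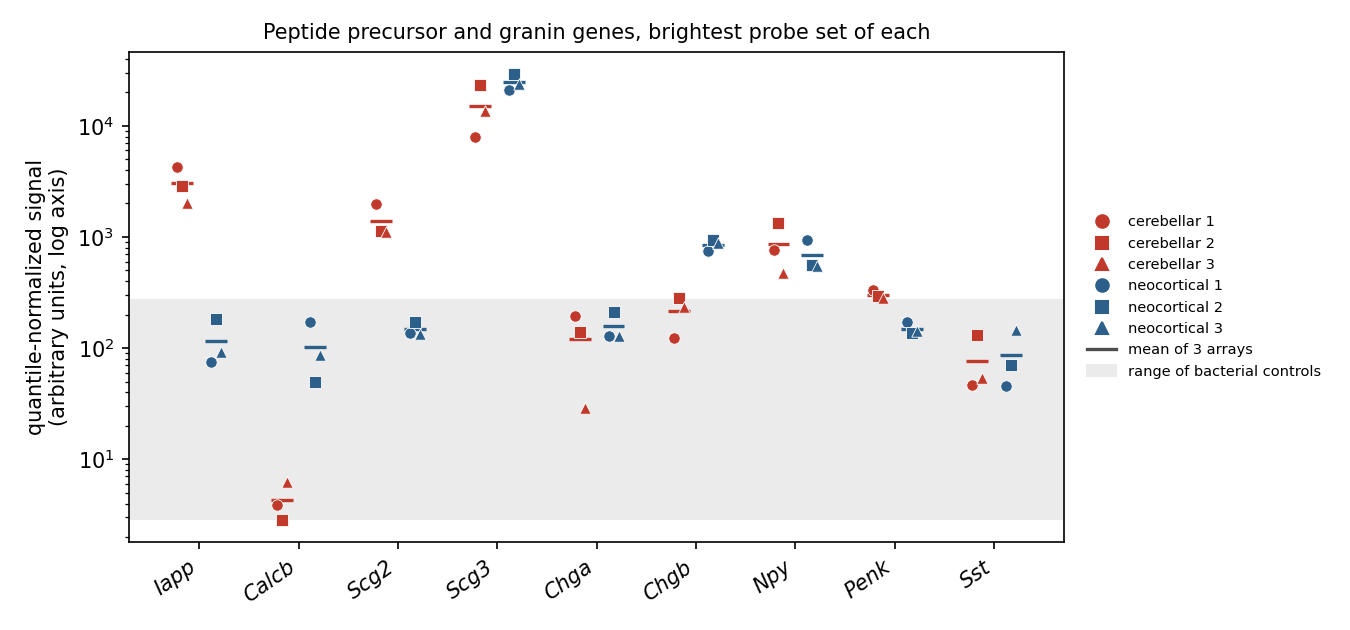
Signal of the 9 measured genes on each of the 6 arrays, as quantile-normalized intensity on a log axis, with cerebellar arrays in red at the left of each gene and neocortical arrays in blue at the right. Horizontal bars are means of 3 arrays and the grey band is the dim range. Iapp and Scg2 leave the band only on cerebellar arrays, while Scg3 is far above it on all 6.

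Iapp encodes islet amyloid polypeptide (amylin), a peptide hormone that pancreatic beta cells store and release together with insulin. Its brightest probe set (1423510_at) read 4237, 2852 and 2008 on cerebellar arrays, against 74.43, 181.2 and 92.07 on neocortical arrays. The lowest cerebellar array was thus far above the highest neocortical one. The fitted difference was 4.75 ± 0.377 (SE), or 26.9-fold, with means of 3032 ± 1130 in cerebellar and 115.9 ± 57.2 in neocortical samples (SD, n = 3 each). All 3 neocortical values were in the dim range, so the neocortical level is not fixed by these data and the size of the fold is uncertain.

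The other probe sets of Iapp measured the same gene on the same RNA, so they check the probes and not the samples. Probe set 1437323_a_at read 2459, 1284 and 1334 on cerebellar arrays and 113, 166.4 and 155.2 on neocortical arrays, an 11.3-fold difference. Probe set 1423509_a_at read 1510, 702.4 and 696.5 on cerebellar arrays, while all 3 neocortical arrays were at or under the floor, which makes it at least 14.5-fold higher in cerebellar astrocytes. The dimmest, 1456004_x_at, whose suffix marks probes that may also match other transcripts, read 307.4, 144.6 and 377 on cerebellar arrays and 140.8, 44.23 and 118.1 on neocortical arrays. It fell below the brightness limit and was not tested, and its groups did not overlap. Cerebellar array 1 was the highest of the cerebellar arrays for 3 of the 4 probe sets. The 4 probe sets therefore had one direction and differed in the size of the fold, which was smallest for the dimmest.

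**Figure D2:**
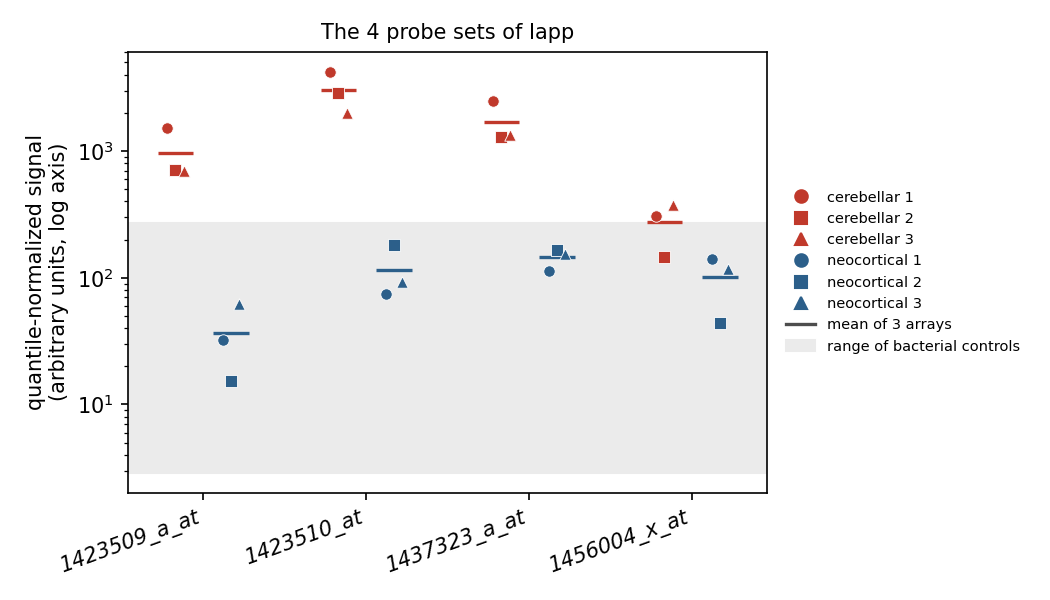
Signal of the 4 probe sets of Iapp on each array, as quantile-normalized intensity on a log axis, with cerebellar arrays in red left of neocortical arrays in blue, bars at the means of 3 arrays and the dim range in grey. All neocortical values lie in the grey band, and so does 1 cerebellar value of the dimmest probe set.

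Iapp acts in the body through the calcitonin receptor joined to a receptor activity-modifying protein. Calcb, which encodes the beta form of calcitonin gene-related peptide and belongs to the same family as Iapp, showed no such cerebellar signal. It read 3.867, 2.833 and 6.208 on cerebellar arrays, at the bottom of the dim range, against 171.6, 49.58 and 86.26 on neocortical arrays. Every cerebellar value was at the floor and every neocortical value was in the dim range, so no fold is given.

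The promoters of the genes were read to show which cyclic AMP response element, the DNA motif bound by CREB, they carry, since such an element is textbook background for Sst. RefSeq promoter windows of the build GRCm38.p6, from 250 bases before to 50 bases after a start of the gene, were held for 8 of the 10 genes. For Scg3 and Sst, on the minus strand, the window lies inside the gene span, which reaches to base 75685959 and 23891342. Positions for these genes are relative to that inner start. The full element, TGACGTCA, which reads the same on both strands, was in 3 of these 8 windows (Scg2, Chgb and Sst), against 1.79% of 32851 windows of the same length. Its first 5 bases, TGACG, on either strand, and so inside each full element as well, were in 6 of 8 windows, against 20.8% of all. TATAA on the gene strand was in 3 of 8 windows (Iapp, Scg2 and Chga), against 17.5%. The windows of Iapp, Scg2, Chgb and Sst are shown because they pair the genes called in each direction with one that was dim throughout. They lie at chr6:142298175-142298474 on the plus strand for Iapp, chr1:79439977-79440276 on the minus strand for Scg2, chr2:132781392-132781691 on the plus strand for Chgb and chr16:23890795-23891094 on the minus strand for Sst. Capitals mark these motifs, and each sequence runs 5′ to 3′ along its gene.
Iapp: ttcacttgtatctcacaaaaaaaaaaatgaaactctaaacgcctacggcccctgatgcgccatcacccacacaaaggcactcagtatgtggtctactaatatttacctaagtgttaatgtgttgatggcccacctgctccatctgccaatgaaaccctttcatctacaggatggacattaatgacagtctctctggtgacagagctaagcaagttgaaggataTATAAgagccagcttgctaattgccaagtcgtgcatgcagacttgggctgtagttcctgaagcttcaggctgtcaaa
Scg2: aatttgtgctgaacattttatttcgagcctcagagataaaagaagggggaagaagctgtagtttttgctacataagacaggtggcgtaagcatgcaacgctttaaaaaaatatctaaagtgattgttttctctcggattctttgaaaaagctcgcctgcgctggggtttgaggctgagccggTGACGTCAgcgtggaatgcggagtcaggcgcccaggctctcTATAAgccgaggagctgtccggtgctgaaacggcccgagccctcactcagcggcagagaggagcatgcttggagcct
Chgb: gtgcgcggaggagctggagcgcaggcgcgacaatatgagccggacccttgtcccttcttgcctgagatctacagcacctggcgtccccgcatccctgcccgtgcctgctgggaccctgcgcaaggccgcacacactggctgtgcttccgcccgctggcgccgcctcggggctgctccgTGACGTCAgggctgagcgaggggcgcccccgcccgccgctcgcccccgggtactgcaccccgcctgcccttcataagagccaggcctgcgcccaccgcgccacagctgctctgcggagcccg
Sst: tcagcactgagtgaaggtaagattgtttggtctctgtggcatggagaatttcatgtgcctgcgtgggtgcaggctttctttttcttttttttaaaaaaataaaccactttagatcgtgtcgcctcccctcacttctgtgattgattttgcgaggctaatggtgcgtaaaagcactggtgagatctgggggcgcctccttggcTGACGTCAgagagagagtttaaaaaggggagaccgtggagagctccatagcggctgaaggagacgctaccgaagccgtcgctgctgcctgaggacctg

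In these windows the full element began 68 bases before the start of Scg2, 72 before that of Chgb and 48 before the inner start used for Sst. TATAA began 27 bases before the start in both Iapp and Scg2. The 3 genes with the full element had 3 different patterns, with Scg2 called higher in cerebellar astrocytes, Chgb called lower and Sst in the dim range in both regions. Iapp, with the same direction as Scg2, had neither TGACGTCA nor TGACG in its window. A match is a string of letters and not evidence that a factor binds there.

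Of the granins, Scg2 encodes secretogranin II, the precursor of the peptide secretoneurin. It read 1978, 1119 and 1110 on cerebellar arrays, against 137.9, 172.8 and 134.8 on neocortical arrays. Cerebellar arrays were all above the dim range and neocortical arrays all inside it. The fitted difference was 3.19 ± 0.283 (SE), or 9.15-fold, with means of 1403 ± 499 in cerebellar and 148.5 ± 21.2 in neocortical samples (SD, n = 3 each). As with Iapp, the neocortical level is not fixed by these data and the size of the fold is uncertain. Cerebellar array 1 was again the highest of its group.

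Chgb encodes chromogranin B, a granin of endocrine and neuronal vesicles. It read 122.7, 284.1 and 236.2 on cerebellar arrays, against 747.4, 929.9 and 876.2 on neocortical arrays. This is the opposite order to Scg2, with every cerebellar array below every neocortical one and 2 of the 3 cerebellar values in the dim range. The fitted difference was -2.07 ± 0.328 (SE), 4.2-fold lower in cerebellar astrocytes (214.3 ± 82.9, against 851.2 ± 93.8 in neocortical samples, SD, n = 3 each). The call was lost when dim probe sets were tested as well.

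Scg3 encodes secretogranin III, which binds chromogranin A and the cholesterol-rich vesicle membrane. It was bright on all arrays, at 7938, 23260 and 13640 on cerebellar arrays and 20880, 29310 and 23750 on neocortical arrays. Cerebellar array 2 lay within the neocortical range and cerebellar arrays 1 and 3 lay below it. The fitted difference of -0.84 ± 0.321 (SE) was not called, but it was called lower with the replicate number as a block, with arrays scaled by their medians, and without cerebellar array 2. Over all alternatives the difference ranged from -1.23 to -0.45.

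Chga encodes chromogranin A, the classical granin of endocrine vesicles. It read 193.4, 140.4 and 29.07 on cerebellar arrays and 129.3, 212.9 and 128.8 on neocortical arrays. All 6 values were in the dim range and the groups overlapped. No level of Chga above the dim range was thus seen in either region. The 4 granins had 4 different patterns, with Scg2 called higher, Chgb called lower, Scg3 bright in both regions and Chga dim in both.

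Of the neuropeptide precursors, Penk encodes proenkephalin, the source of the opioid enkephalins. It read 335, 291.6 and 280.2 on cerebellar arrays, against 172.4, 135.7 and 141.5 on neocortical arrays. The groups did not overlap, but cerebellar values were just above the dim range and neocortical values inside it. The fitted difference of 1.02 ± 0.31 (SE) was not called. It was called higher with the values as deposited and without a variance trend. With the floor at the 40th percentile it was 0.681, and with the values as deposited 1.199.

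Npy encodes neuropeptide Y, a peptide of cortical interneurons that also signals in feeding circuits. It read 764.9, 1339 and 475.9 on cerebellar arrays and 939.1, 557.8 and 548.6 on neocortical arrays. All 6 arrays were above the dim range and the groups overlapped. The fitted difference was 0.25 ± 0.371 (SE). It ranged from -0.129 to 0.626 over the alternatives, so no direction is given.

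Sst encodes somatostatin, the inhibitory peptide of another class of interneurons. It read 46.23, 130.1 and 54.15 on cerebellar arrays and 45.15, 69.73 and 144.7 on neocortical arrays. The groups overlapped and all 6 values were in the dim range. Npy was thus above the dim range in both regions, Penk in cerebellar samples only, and Sst in neither, which sets each gene against the controls and not against another gene.

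Cerebellar array 1 was the highest cerebellar array for Iapp and Scg2 and the lowest for Scg3 and Chgb. Its summed astrocyte marker signal of 175900 was also the lowest, against 251900 and 247300 on cerebellar arrays 2 and 3. The microglia and macrophage sum was 8140 on that array, against 42130 and 27630, and the fibroblast and meningeal sum was 69940, against 148600 and 255400. Also lowest there were the sums for choroid plexus and ependymal (17770, against 36410 and 27780) and oligodendrocyte-lineage markers (53820, against 81720 and 55000). Highest there were the neuronal sum (26600, against 23230 and 17220) and the endothelial and mural sum (103600, against 93390 and 82280). The neuroendocrine sum lay between, at 3963, against 5947 and 3822. The part of these cells in the results was not tested. The endothelial and mural sum did not overlap between regions, at 82280 to 103600 on cerebellar and 114900 to 127000 on neocortical arrays. Acta2 made up most of that sum, at 91030 ± 11300 in cerebellar and 118100 ± 6150 in neocortical samples (SD, n = 3 each). Its call (limma adjusted p = 0.0354) was lost in 9 of 16 alternative settings. Of the 4 tested markers of this list, 2 were called lower and 0 higher, against 7.36% and 5.3% of all tested genes. The other lower one, Kdr, read 422.2 ± 49.9 in cerebellar and 1269 ± 324 in neocortical samples (SD, n = 3 each). The call of Kdr (limma adjusted p = 0.00304) was kept in all 16 alternative settings. In the dim range on every array were 5 of the 10 markers. The part of endothelial and mural cells was not tested either. Without cerebellar array 1 the difference was 4.48 for Iapp, 2.92 for Scg2, -1.71 for Chgb and -0.45 for Scg3.

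Neuronal and endocrine markers were set beside the genes because neurons and endocrine cells make the same peptides. The 20 neuronal markers summed to 17220 to 26600 on cerebellar and 24330 to 26250 on neocortical arrays (two-sided exact permutation p = 0.5). Of these, 12 lay in the dim range on every array. Over all tested genes, 5.3% were called higher and 7.36% lower. Of the 8 neuronal markers tested, 0 were called higher in cerebellar astrocytes. Syt1 and Gad1, 2 of the 8, were called lower (limma adjusted p = 0.0227 and 0.0233). Both calls were lost without the filter (adjusted p = 0.0536 and 0.127). That of Syt1 was also lost without any 1 of the neocortical arrays, and that of Gad1 without the variance trend, cerebellar array 2 or 3, or neocortical array 2 or 3. At an unadjusted limma p under 0.05, 1 of the 8 tested was higher and 4 were lower, against 12.6% and 15.3% of all tested genes. The brightest were Stmn2, with 11040 ± 6100 in cerebellar and 9284 ± 2800 in neocortical samples, and Map2, with 7142 ± 1770 in cerebellar and 10840 ± 1350 in neocortical samples (SD, n = 3 each). The 11 measured neuroendocrine markers summed to 3822 to 5947 on cerebellar and 20970 to 22380 on neocortical arrays, with an exact permutation p of 0.1, the smallest that 3 arrays against 3 allow. Scg5 made up most of that sum, followed by Nkx2-2. Both were called lower in cerebellar astrocytes, 2 of the 3 tested with 0 higher, against 7.36% and 5.3% of all tested genes. The Nkx2-2 call was lost in 3 of 16 alternative settings. Dbh, also tested, was not called (limma adjusted p = 0.29). It read 317.4 ± 27.1 in cerebellar and 221.6 ± 54.8 in neocortical samples (SD, n = 3 each). The other 8 of the 11 were in the dim range on every array. Among the dim ones, named after their values were seen, were the islet hormone genes Ins2 (75.52 ± 10.9 in cerebellar, 59.78 ± 7.74 in neocortical, SD, n = 3 each) and Gcg. The other mouse insulin gene, Ins1, was not analysed here.

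Some markers of oligodendrocyte-lineage and choroid plexus or ependymal cells, named after their values were seen, also differed, while others were not called. The 11 oligodendrocyte-lineage markers summed to 53820 to 81720 on cerebellar and 72420 to 83740 on neocortical arrays (exact permutation p = 0.3). Of the 6 tested, 2 were called lower and 1 higher in cerebellar astrocytes, and 3 were not called. Over all tested genes, 7.36% were lower and 5.3% higher. Cnp, the brightest of these markers, was not called (limma adjusted p = 0.454). It read 51840 ± 12500 in cerebellar and 44540 ± 4130 in neocortical samples (SD, n = 3 each). Olig2, a transcription factor of that lineage also made by some astrocytes, read 596.7 ± 213 in cerebellar and 3418 ± 262 in neocortical samples (SD, n = 3 each, limma adjusted p = 0.000499). Olig1 was lower as well (-1.74 ± 0.206, SE, adjusted p = 0.00129), and Mbp, a myelin protein gene, was higher (2.65 ± 0.514, SE, adjusted p = 0.0134). The Mbp call was lost without the filter (adjusted p = 0.12), without cerebellar array 1 (0.918, adjusted p = 0.127) and without probe sets of the _x_at or _s_at suffix (0.612, adjusted p = 0.316). Nkx2-2, counted above as neuroendocrine, is also a factor of this lineage. The 10 choroid plexus and ependymal markers summed to 17770 to 36410 on cerebellar and 30150 to 39190 on neocortical arrays (exact permutation p = 0.4). Of 8 tested only Folr1 was called, at 821.6 ± 164 in cerebellar and 3395 ± 112 in neocortical samples (SD, n = 3 each, limma adjusted p = 0.000208). The 2 brightest, Enkur and Foxj1, were not called (limma adjusted p = 0.964 and 0.44). The part of these cells in the lower values of Chgb and of the genes below was not tested.

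The machinery that cuts, receives and releases such peptides was summarised by 4 gene lists. Of 24 tested processing and degradation genes, 1 rose and 2 fell in cerebellar astrocytes, and 21 did not pass. The shares over all tested genes were 5.3% higher and 7.36% lower. The median difference was -0.114, against -0.0148 over all genes tested. Scg5, which encodes the chaperone that brings prohormone convertase PC2 to activity, read 2350, 4258 and 2731 on cerebellar arrays, against 19530, 19770 and 18880 on neocortical arrays. It was 6.44-fold lower in cerebellar astrocytes (limma adjusted p = 0.0001), a direction shared with Chgb and opposite to Iapp and Scg2. The convertase gene Pcsk6 was 1.82-fold lower (adjusted p = 0.0343), a call lost without cerebellar array 1 or 3, without any 1 of the neocortical arrays, without the filter and without the variance trend. Mme, which encodes neprilysin, a protease that degrades enkephalins and other small peptides, was 2.1-fold higher, at 11080 ± 2450 in cerebellar samples against 5212 ± 396 in neocortical samples (SD, n = 3 each, adjusted p = 0.00308), with 1 of its 2 probe sets past the threshold. Without the filter that call was lost (adjusted p = 0.0545).

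Carboxypeptidase E (Cpe), which trims the basic residues left after cleavage, was very bright in both regions, with cerebellar samples at 87080 ± 12500 and neocortical samples at 97280 ± 5890 (SD, n = 3 each). Pam, which amidates peptides such as amylin and neuropeptide Y, read 7002 ± 324 in cerebellar and 7900 ± 1200 in neocortical samples. Neither passed the test (limma adjusted p = 0.36 and 0.422). Pcsk1, the convertase of islet and neuroendocrine granules, was in the dim range on all arrays, at 38.58 ± 19.7 in cerebellar and 107.2 ± 27.7 in neocortical astrocytes. These 3 genes were named after their values were seen. Pcsk5, a convertase gene also named after its value was seen, missed the threshold at a difference of 0.903 ± 0.252 (SE, adjusted p = 0.053) and passed with the replicate block (0.0331).

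**Figure D3:**
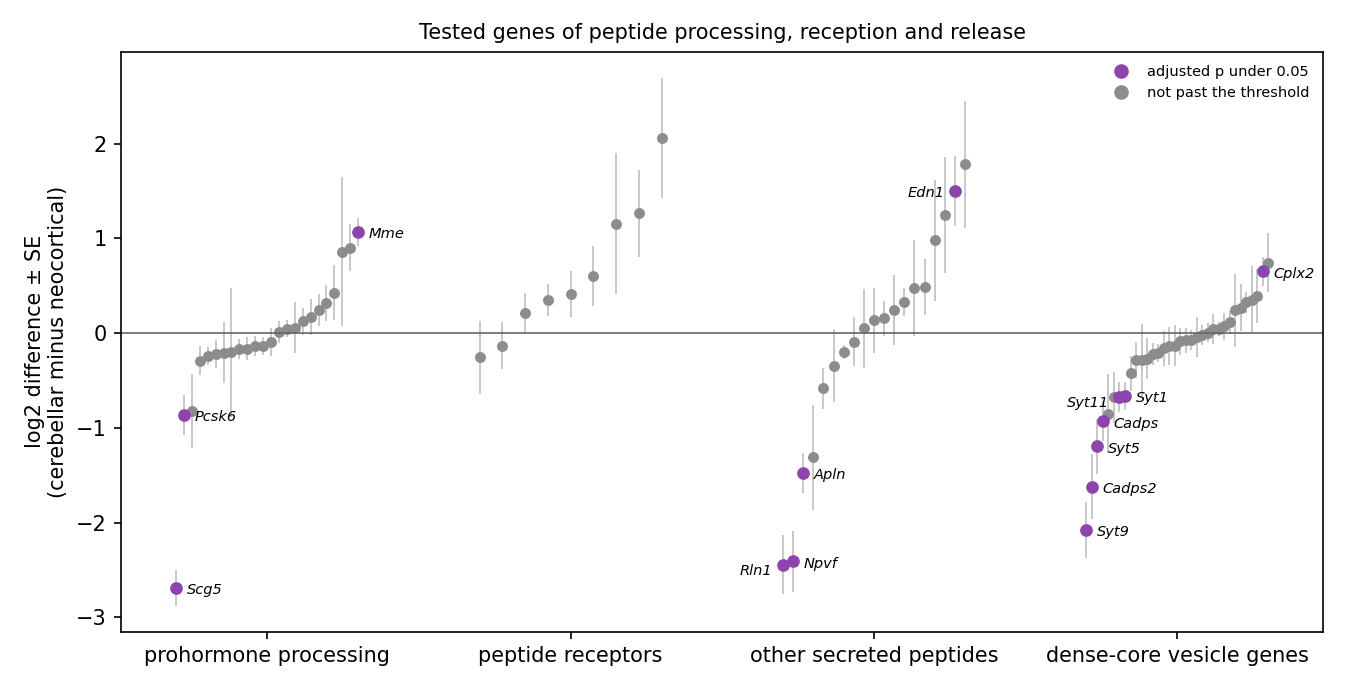
Difference in log2 signal, cerebellar minus neocortical, with its standard error, for each tested gene of the 4 lists, ordered by size within a list. Purple points passed the adjusted threshold of 0.05, and grey points did not. No gene of the receptor list passed, and calls in the vesicle list were mostly below 0.

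No receptor gene for these peptides passed the limma test among 9 tested, in either direction. At an unadjusted p under 0.05, 2 were higher and 0 were lower, against 12.6% and 15.3% of all tested genes. The median of the 9 was 0.416, while 10 further receptor genes were too dim to test. Calcr, the calcitonin receptor that amylin uses, was one of these, with means of 27.73 in cerebellar and 93.14 in neocortical samples, named after its values were seen. Ramp1, which joins the calcitonin receptor or the calcitonin receptor-like receptor to bind CGRP or amylin, was the brightest, with cerebellar samples at 10840 ± 2670 and neocortical samples at 8335 ± 755 (SD, n = 3 each). Its adjusted p was 0.228, and 0.0253 without cerebellar array 1. Crcp, a component of the CGRP receptor complex, followed at 1522 ± 300 in cerebellar and 1328 ± 332 in neocortical samples (adjusted p = 0.597). Npy1r, a receptor of neuropeptide Y, named after its value was seen, read 826.1, 537.3 and 573.4 on cerebellar arrays and 26.37, 120.4 and 471.2 on neocortical arrays. Its difference of 2.06 ± 0.636 (SE) did not pass (adjusted p = 0.074), but did without neocortical array 3 (0.0095) and with median scaling (0.0479).

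Among 19 other tested peptide and secreted-regulator genes, 1 rose, 3 fell and 15 did not pass, against 5.3% higher and 7.36% lower over all genes, with a median of 0.138. A further 31 were too dim to test. Npvf, the precursor of RFamide-related peptides, read 3466, 1557 and 1600 on cerebellar arrays, against 13730, 7506 and 12570 on neocortical arrays. It was 5.31-fold lower in cerebellar astrocytes (limma adjusted p = 0.00227), and missed the threshold without the filter (0.0618). Rln1, a relaxin gene, was 5.44-fold lower, with all cerebellar values in the dim range (adjusted p = 0.00169), and Apln, the precursor of apelin, was 2.79-fold lower (0.00285). Edn1, the precursor of endothelin 1, was 2.83-fold higher (adjusted p = 0.0339). That call was lost without any 1 of the cerebellar arrays, without neocortical array 3, without the filter and without the variance trend.

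Of 34 tested dense-core vesicle and exocytosis genes, 6 fell, 1 rose and 27 did not pass, against 7.36% lower and 5.3% higher over all genes, with a median of -0.109. Syt9, a calcium sensor of granule release, was 4.23-fold lower in cerebellar astrocytes (limma adjusted p = 0.00314). Cadps2 and Cadps, which encode the CAPS proteins that prime dense-core vesicles for release, were 3.07-fold and 1.91-fold lower (adjusted p = 0.0188 and 0.0262). Syt5, another synaptotagmin gene, was 2.29-fold lower with all cerebellar values in the dim range (adjusted p = 0.0342). Cplx2, a complexin gene, was 1.57-fold higher (adjusted p = 0.0306). These 7 calls were fragile: without the filter on dim probe sets none of the 6 lower calls passed, and without neocortical array 1, 2 or 3 the list had 1, 1 and 2 lower calls. Neuronal markers overlap with this list, since Syt1 and Snap25 are on both.

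**Figure D4:**
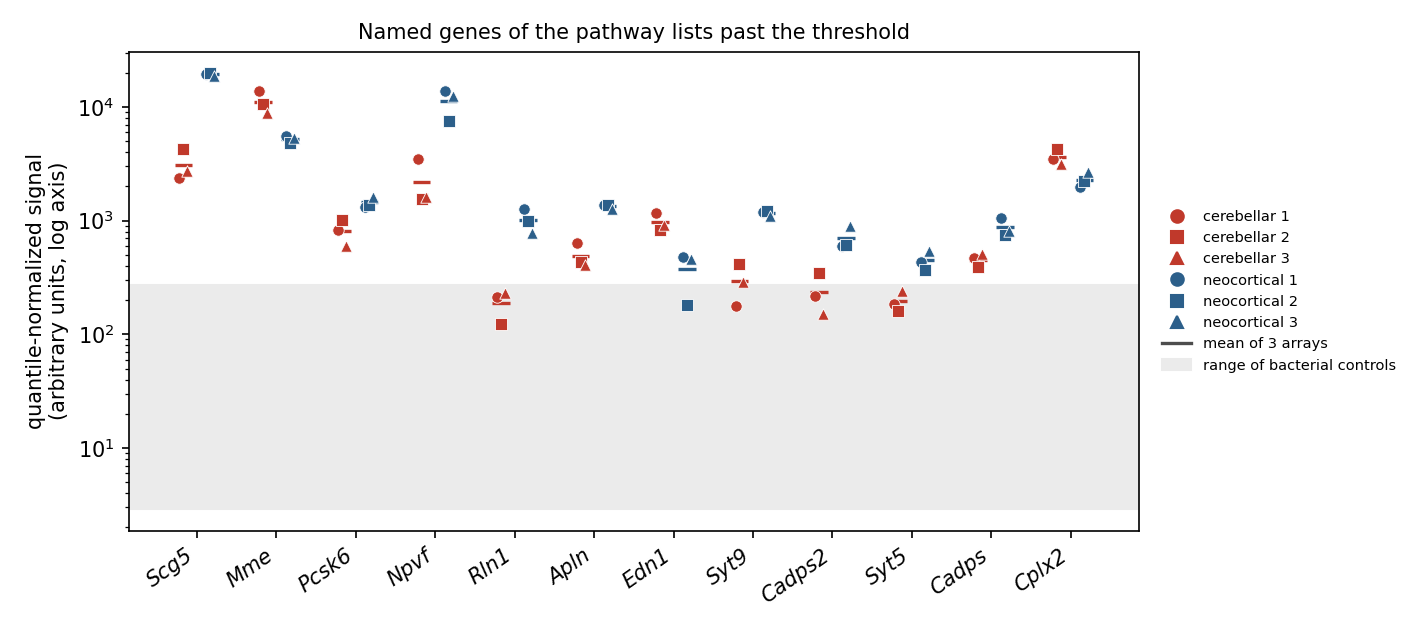
Signal of 12 named genes past the threshold, as quantile-normalized intensity on a log axis, with cerebellar arrays in red left of neocortical arrays in blue, bars at the means of 3 arrays and the dim range in grey. Cerebellar arrays lie below for Scg5 and Npvf, with wide gaps, and above for Mme, Edn1 and Cplx2, with a narrow gap for Cplx2.

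The genes most like Iapp and Scg2 over the 6 arrays were found by the Pearson correlation of log2 signal among 12610 other tested genes. Iapp and Scg2 themselves correlated at 0.992. The nearest to Iapp were Heatr1 (0.9993), Tshz2, Ier2, Arrb1 and Rassf4 (0.9939). Those nearest to Scg2 were Plec (0.999), Pde7b, Cmtm7, Elfn1 and Ier2 (0.997), so Ier2, an immediate early gene, was near both. Correlation ignores size: Heatr1 differed 1.22-fold, at 1904 ± 44.2 in cerebellar and 1556 ± 38.4 in neocortical astrocytes, and Ier2 2.44-fold, at 17050 ± 1460 in cerebellar and 6969 ± 470 in neocortical samples (SD, n = 3 each). Elfn1 read 1117 ± 411 in cerebellar and 153.9 ± 35.6 in neocortical samples, and like Iapp and Scg2 it had all neocortical values in the dim range, so the size of its fold is uncertain. All 6 points share the regional split, and 250 genes exceeded 0.95 with Iapp and 305 with Scg2, so the likeness is not particular to the genes named.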

How the data were processed

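Values deposited by the authors were linear intensity, 1 for each probe set on each array. How probes were summarised, and with what software, is not given in the sources used here. After 2% was trimmed at each end, the mean was 1500 on all 6 arrays. The 64 control probe sets were left out, and the other 45037 were quantile normalized, floored and put on a log2 scale. The 27022 that passed the brightness filter were tested in R 4.3.3 by limma 3.58.1 (lmFit, eBayes with a variance trend, two-sided, Benjamini-Hochberg over all of them, threshold 0.05), a step tested on simulated data. Over these, 1319 probe sets were higher and 1545 lower in cerebellar astrocytes, and 819 and 2105 with arrays scaled by their medians. That scaling moved the median over probe sets from 0.00896 to -0.096, and the calls under it hold relative to that shift.

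The platform annotation gave 1 symbol for 34945 probe sets, several for 932 and none for 9160, and 34741 were updated through Entrez ID. The brightest probe set stood for its gene. For arrays that share a number, the deviations from group means had correlations of 0.18, 0.188 and 0.101, against -0.182 to 0.0225 for other numbers. Deviations cancel out within a group, so positive correlations for shared numbers push the others down. The correlations were low and do not establish pairs. The numbers were taken as possible pairs, from the data and not the labels. The main fit had no replicate block, and marker sums were tested without pairs except where a paired p is given.

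The genes and lists were chosen with earlier results of these data known. Named genes were all members, up to 4 genes per list and direction past the threshold, and the 2 brightest where under 2 passed. The 2 brightest neuronal and neuroendocrine markers and the 5 genes most like Iapp and Scg2 were also named. Genes of the other marker lists were named after their values were seen, and the 2 brightest were not given for every list. Planned protein features were not computed. The number of arrays limits the precision.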

Additional observations from a re-analysis of the deposited data

How the results depend on the processing

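The differences are those used to choose the genes, so their ranges are a description. That of Iapp ran from 3.945 to 5.085, that of Scg2 from 2.844 to 3.367 and that of Chgb from -2.318 to -1.712. With the filter at the 60th percentile Iapp, Scg2 and Chgb were too dim over both regions to be tested (0 members called either way). Counts given next are of calls in cerebellar astrocytes. With the replicate block, 2 members (with Scg3) were lower and 2 processing genes (with Pcsk5) were higher. The block changed no other call of a member or named gene. Of processing genes, 2 were higher with values as deposited, with a floor at the 40th percentile, and when the probe sets of a gene were averaged. Median scaling gave 819 probe sets, 2 processing genes, 1 receptor and 0 vesicle genes higher and 2 members lower. Without the filter, 577 probe sets were higher and 704 lower, with 0 processing genes and 0 other peptides higher, 1 processing gene lower, and 0 vesicle genes and 0 members lower. More probe sets are then tested. Without the variance trend, 676 were higher and 914 lower, with 0 other peptides and 0 vesicle genes higher and 1 processing gene lower. Leaving out probe sets with an _x_at or _s_at suffix gave 0 vesicle genes higher. Leaving out 1 array at a time gave 547 to 1230 probe sets higher and 654 to 1554 lower, 1 to 2 processing genes higher and 1 to 2 lower, 0 to 1 receptors, other peptides and vesicle genes higher, 1 to 5 vesicle genes lower and 1 to 2 members lower. Fewer samples are then fitted; otherwise the cause was not tested. The signs of Npy, Chga and Sst, none of them called, turned when some single arrays were left out, and that of Sst also with the values as deposited.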
